A study of Mus musculus with 6 samples.

Results

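The genes described here encode the surface T cell antigen receptor and its coreceptors. They are the constant regions of the alpha chain (Trac) and of the beta chain (Trbc1 and Trbc2), the CD3 chains (Cd3d, Cd3e and Cd3g) and the coreceptors CD4 (Cd4) and CD8 (Cd8a and Cd8b1). They were chosen by symbol, and all 9 were found among the 26332 genes of the count table. RNA-seq was made of natural killer (NK) cells sorted from mouse thymus, and each library came from its own mouse. The libraries were 2 with a Tcf7 knockout (KO 1, male, and KO 2, female) and 4 wild-type ones (WT 1 and WT 3, male, WT 2 and WT 4, female), all on the C57BL/6 background. The labels do not give the mice's age or the design of the knockout allele. Tcf7 encodes TCF-1, a DNA-binding factor needed for early T cell development. The gate took cells with NK1.1 and NKp46 and left out those with surface TCRbeta, CD3, CD8 or CD1d tetramer binding. The products of Trbc1, Trbc2, the CD3 genes and the CD8 genes were thus used to remove cells, while CD4 was not named in the gate.

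The alpha and beta chains recognise peptide on MHC molecules but have no signalling tail of their own. CD3 epsilon pairs with CD3 gamma and with CD3 delta, and these pairs, with the zeta chain encoded by Cd247, carry the signal into the cell. CD4 and CD8 bind the MHC molecule beside the receptor and bring the kinase Lck. In T cells, V, D and J segments are joined upstream of a constant gene, and each beta constant gene has its own cluster of D and J segments. NK cells do not need a rearranged receptor, and they use the zeta chain with other receptors.

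Trbc1 and Trbc2 are near copies. In the GENCODE vM21 models (build GRCm38, the same as mm10), 518 coding bases of each were compared. They differed at 23 positions, an identity of 95.6%, and the longest stretch without a difference was 259 bases. Exon 1, with 375 of these bases, held 1 difference, C260A from Trbc1 to Trbc2, counted from the first coding base. Exon 3 held 15 differences. Exon 3, where most of the differences lie, is shown because the results turn on counts of Trbc2 that are not matched by counts of Trbc1. Capitals mark the bases that differ. The exon lies at chr6:41539229-41539335 in Trbc1 and at chr6:41547772-41547878 in Trbc2, on the plus strand.
Trbc1 exon 3: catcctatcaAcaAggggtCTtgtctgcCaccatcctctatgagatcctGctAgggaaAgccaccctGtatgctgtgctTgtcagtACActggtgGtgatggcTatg
Trbc2 exon 3: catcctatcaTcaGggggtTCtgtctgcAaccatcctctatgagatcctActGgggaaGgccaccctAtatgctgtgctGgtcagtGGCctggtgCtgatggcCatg
Reads that lie within the shared stretches can be placed in either gene or dropped, so the split between Trbc1 and Trbc2 is uncertain.

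Total counts were 16418910 and 26245132 in the KO libraries and 16666151 to 31155303 in the WT libraries, and 3 counts corresponded to 0.0963 to 0.183 CPM, counts scaled to the library total. Tcf7, the targeted gene, had 268 and 452 CPM in the KO libraries against 811 to 947 CPM in the WT libraries (log2 fold change -1.35, SE 0.17, adjusted p = 0.00294, edgeR). The NK markers Ncr1, which encodes NKp46, and Klrb1c, which encodes NK1.1, were read in every library. Ncr1 had 983 and 740 CPM in KO and 820 to 1037 CPM in WT, and Klrb1c had 1270 and 1084 CPM in KO and 1555 to 1705 CPM in WT. Klrb1c was called lower in KO (log2 fold change -0.48, adjusted p = 0.0149, edgeR), but not without WT 1 (adjusted p = 0.0585, edgeR). Ncr1 was not called (-0.17, adjusted p = 0.384, edgeR). WT 4 stood apart from the other WT libraries in the coreceptor genes, whose sum was 53.2 CPM there, against 3.81 to 6.30 CPM in WT 1, WT 2 and WT 3. It also had the highest WT level of Rag1, a recombinase gene of immature lymphocytes, at 62.4 CPM against 4.25 to 11.2 CPM in the other WT libraries. The coreceptor results are therefore also given without WT 4. Calls were made with edgeR's quasi-likelihood test, which had sex as a covariate, where the Benjamini-Hochberg value over 13652 genes was below 0.05. All levels are CPM scaled by TMM, with SD over 2 KO or 4 WT libraries, and log2 fold changes are positive where KO was higher.

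All 9 genes passed the filter on low counts. Of these, 4 were called higher in KO (Trac, Trbc2, Cd4 and Cd8a), none was called lower, and 5 were not called. Over all tested genes, 8.13% were called higher and 5.58% lower. No gene of the 9 was lower at an unadjusted p under 0.05 either (0 of 9), and DESeq2 and limma voom each called 0 lower. With a library left out, the count called higher was 2 without WT 3 and also without KO 1, and 6 without WT 2. The median log2 fold change was 2.47 over the 9 genes and 0.02 over all tested genes. For 6 of the 9, both KO libraries lay above every WT library, as did those of 20.5% of all tested genes; in either direction, 39.3% did not overlap. In bulk RNA, more cells of a type and more RNA per cell cannot be told apart.

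**Figure D1:**
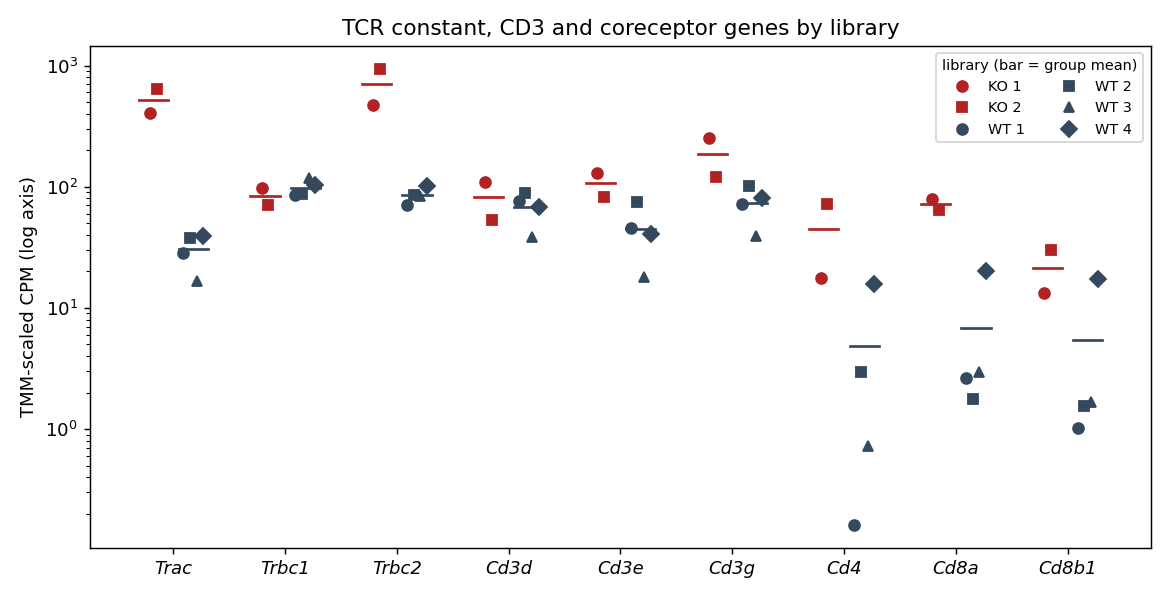
TMM-scaled CPM (log axis) of the 9 genes in each library, KO left of WT, with a bar at each group mean. Trac and Trbc2 were far higher in both KO libraries, Trbc1 and Cd3d overlapped between groups, and WT 4 lay above the other WT libraries for Cd4, Cd8a and Cd8b1.

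The alpha chain constant gene was far higher in KO. Trac (Entrez gene 100101484, chromosome 14, 54220521 to 54224198) had 405 and 636 CPM in the KO libraries, against 28.3, 37.4, 16.8 and 39.2 CPM in WT 1 to WT 4. Both KO libraries were thus an order of magnitude above the highest WT library. Trac averaged 520 ± 164 CPM in KO (SD, n = 2) and 30.4 ± 10.3 CPM in WT (SD, n = 4), a 17.1-fold difference. The log2 fold change was 4.11 (SE 0.18, adjusted p = 9.41e-05, edgeR), which ranked 272nd from the top among all tested genes. The fold was near the same in each sex, 17.9 for KO 1 over the male WT libraries and 16.6 for KO 2 over the female ones.

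The beta chain constant genes did not move alike. Trbc2 (Entrez gene 100125263, chromosome 6, 41546730 to 41548181) had 473 and 941 CPM in the KO libraries, against 70.2, 85.9, 83.2 and 101 CPM in WT 1 to WT 4. It rose 8.31-fold, to 707 ± 331 CPM in KO (SD, n = 2) against 85.1 ± 12.8 CPM in WT (SD, n = 4). The log2 fold change was 2.99 (SE 0.17, adjusted p = 0.000161, edgeR). Trbc1 (Entrez gene 100125262, chromosome 6, 41538219 to 41539665), which lies 7064 bases upstream, had 96.8 and 70.1 CPM in KO, against 86.0, 86.7, 119 and 103 CPM in WT. KO 1 fell inside the WT range and KO 2 below it, and the log2 fold change of -0.25 (SE 0.17, adjusted p = 0.357, edgeR) was not called.

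The share of Trbc2 in the beta constant counts followed from this. It was 83.0% in KO 1 (95% Wilson interval 82.2 to 83.7%) and 93.1% in KO 2 (92.8 to 93.4%). In WT it was 44.9% in WT 1 (43.4 to 46.5%), 49.8% in WT 2 (48.4 to 51.1%), 41.2% in WT 3 (39.6 to 42.9%) and 49.6% in WT 4 (48.3 to 51.0%). These intervals cover counting error only, since amplified reads are not independent molecules. The WT libraries thus held the 2 genes at about equal counts, and the KO libraries held mostly Trbc2. In log2 ratios of counts per kilobase, Trbc2 over Trbc1 was 3.01 ± 1.03 in KO (SD, n = 2) and -0.21 ± 0.24 in WT (SD, n = 4), a difference of 3.23. The groups did not overlap, and the exact two-sided permutation p of 0.0667 was the smallest that 2 libraries against 4 can give (adjusted p = 0.133 over 8 ratios).

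The variable segments of both chains were unevenly represented in KO. The 24 Trbv rows, the beta variable segments, summed to 684 and 1586 CPM in the KO libraries and to 16.7 to 42.0 CPM in the WT libraries. A single row, Trbv13-1 (chromosome 6, 41116036 to 41116468), held 93.7% of these counts in KO 1 (95% Wilson interval 93.2 to 94.1%) and 96.9% in KO 2 (96.7 to 97.0%), while in WT the leading Trbv row held 10.5 to 12.3%. Trbv13-1 itself had 640 and 1537 CPM in KO, against 2.55, 2.37, 1.26 and 3.15 CPM in WT. The other 23 Trbv rows summed to 43.1 and 49.5 CPM in KO and 15.4 to 38.9 CPM in WT.

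The alpha segments showed the same kind of skew. Of the 116 Trav rows, Trav14d-3-dv8 (chromosome 14, 53078547 to 53079045) held 83.9% of the counts in KO 1 and 92.5% in KO 2, and the leading Trav row of the WT libraries held 16.3 to 29.3%. It had 2978 and 8253 counts in the KO libraries and 0 counts in each WT library, which allows up to 0.0963 to 0.180 CPM there. The same beta and alpha rows therefore led in both KO mice. The labels name no T cell receptor transgene or other receptor allele in either group, and whether the KO mice carried one was not tested. If they did, its part in any difference between the groups could not be told apart from that of the Tcf7 genotype. This holds for the Trac, Trbc2, Trbv and Trav values, and also for the CD3 genes, the coreceptor genes and the other genes reported below. The 2 segments were chosen after their values were seen, and Trav rows have close copies, so which copy the reads came from is uncertain. The leading Trav row in every library had dv in its name, which marks segments also used by the delta chain. Whether its reads came from alpha or delta chain transcripts was not tested.

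Joining segments were read by cluster, since the Trbj1 rows lie upstream of Trbc1 and the Trbj2 rows between Trbc1 and Trbc2. The 6 Trbj2 rows summed to 36.2 and 46.8 CPM in KO and 14.0 to 15.9 CPM in WT. The 7 Trbj1 rows summed to 104 CPM in KO 1 and 37.9 CPM in KO 2, against 60.3 to 86.3 CPM in WT. Both KO libraries thus lay above WT for the cluster next to Trbc2, and on either side of the WT range for the cluster next to Trbc1.

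**Figure D2:**
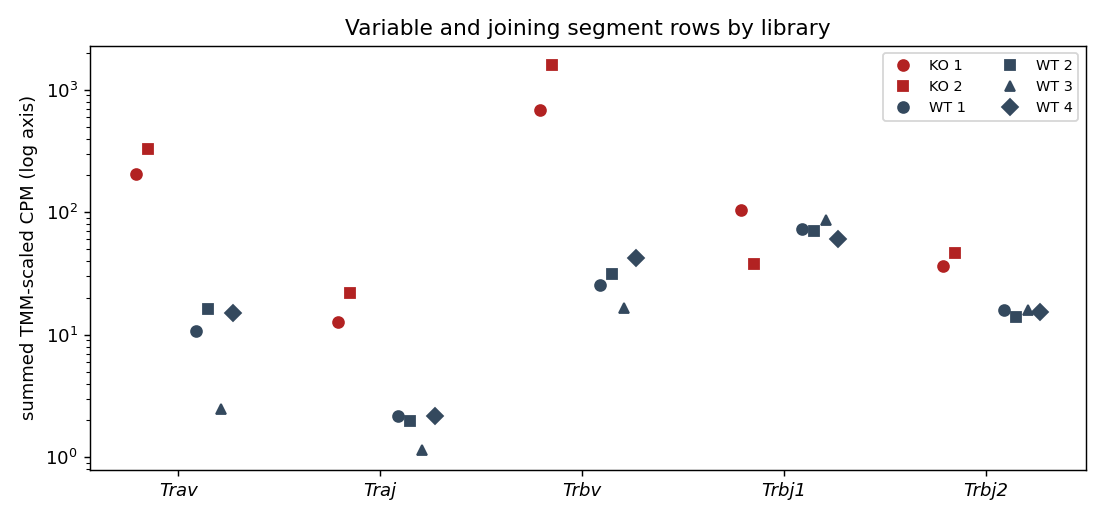
Summed TMM-scaled CPM (log axis) over the variable (Trav, Trbv) and joining (Traj, Trbj1, Trbj2) segment rows in each library, KO left of WT. The Trbv rows summed to 684 and 1586 CPM in KO against at most 42.0 CPM in WT, while the Trbj1 rows of the KO libraries lay on either side of WT.

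The CD3 genes had smaller fitted differences than Trac and Trbc2, and none was called. Cd3g (Entrez gene 12502, chromosome 9, 44969572 to 44980431), which encodes CD3 gamma, had 252 and 121 CPM in KO, against 72.2, 101, 39.4 and 80.0 CPM in WT 1 to WT 4. Both KO libraries lay above WT, KO 2 only slightly, and the fitted difference was 1.38 on the log2 scale (SE 0.39, adjusted p = 0.0566, edgeR). The value was 2.16 without KO 2 (adjusted p = 0.0154) and 0.41 without KO 1, and Cd3g also passed without WT 2 (0.0471). It also passed with library-size scaling, no expression filter, the strict filter, no sex term and limma voom (adjusted p 0.00312 to 0.0484).

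Cd3e had a fitted difference close to that of Cd3g, and Cd3d a smaller one. Cd3e (Entrez gene 12501, chromosome 9, 44998735 to 45009663), the chain present in both CD3 pairs, had 131 and 82.3 CPM in KO, against 45.9, 74.9, 18.1 and 40.6 CPM in WT. The groups did not overlap, but WT 3 was 4.15-fold below WT 2, and the log2 fold change of 1.32 (SE 0.45, adjusted p = 0.0970, edgeR) was called only without WT 2 (1.60, adjusted p = 0.0429) or with no expression filter (adjusted p = 0.0113). Without KO 1 it was 0.50, and without KO 2 it was 2.02. Cd3d (Entrez gene 12500, chromosome 9, 44981769 to 44987052) had 110 and 53.6 CPM in KO, against 75.7, 88.6, 38.3 and 68.3 CPM in WT. KO 1 lay above all WT libraries and KO 2 within their range. The log2 fold change was 0.26 (SE 0.38, adjusted p = 0.698, edgeR), and its sign was negative with WT 3 or KO 1 left out.

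The KO mice differed in the order of receptor and CD3 levels. KO 2 had more Trac and Trbc2 than KO 1, and KO 1 had more of each CD3 gene than KO 2. Summed over Trac, Trbc1 and Trbc2, KO 1 had 974 and KO 2 had 1648 CPM, against 185 to 243 CPM in WT. Summed over the CD3 genes, KO 1 had 492 and KO 2 had 257 CPM, against 95.7 to 264 CPM in WT, so the CD3 sum of KO 2 lay within the WT range.

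Ratios within a library do not depend on library scaling. Trac over Cd3e, as a log2 ratio of counts per kilobase, was 2.26 and 3.58 in KO, against -0.06, -0.37, 0.53 and 0.58 in WT. Trac over the beta constant sum was -1.33 and -1.50 in KO, against -3.30, -3.04, -4.42 and -3.22 in WT. Cd3d over Cd3e was -0.14 and -0.51 in KO, against 0.83, 0.35, 1.19 and 0.86 in WT. The groups did not overlap in these 3 ratios, nor in Trbc2 over Trbc1, and each gave the smallest possible exact permutation p of 0.0667 (adjusted p = 0.133). The groups overlapped in the remaining 4 ratios, which were Cd3g over Cd3e, the beta constant sum over Cd3e, Cd8b1 over Cd8a and Cd4 over Cd8a (exact permutation p 0.200 to 0.867).

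**Figure D3:**
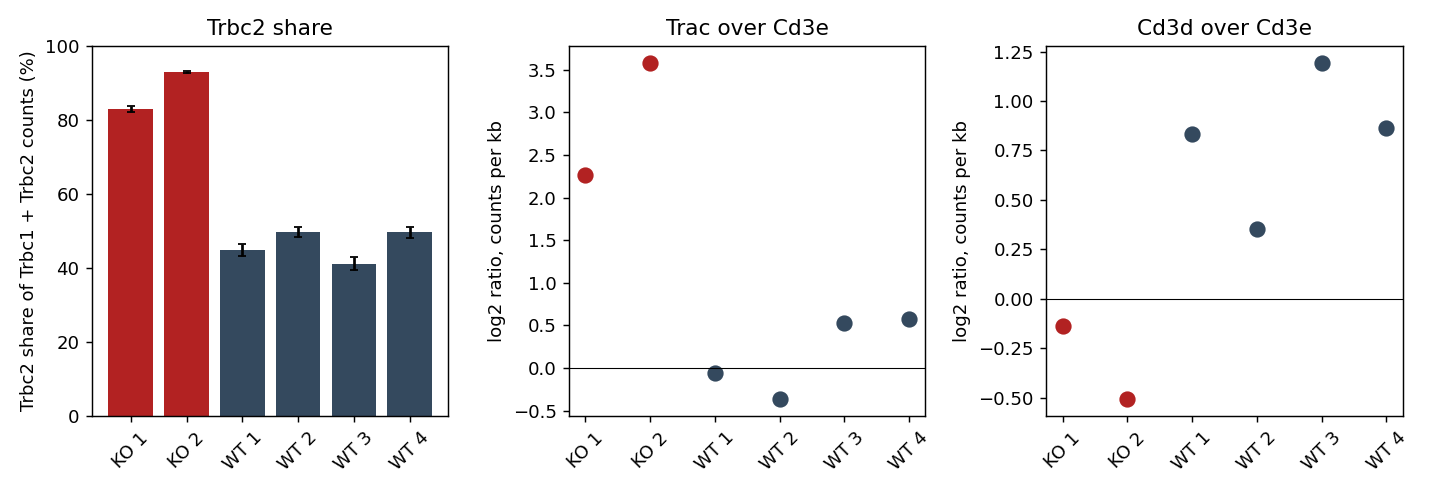
Left, Trbc2 share of the summed Trbc1 and Trbc2 counts in percent, with 95% Wilson intervals; middle and right, log2 ratios of counts per kilobase of Trac and of Cd3d over Cd3e, with KO libraries left of WT libraries. The Trbc2 share was 83.0 and 93.1% in KO and at most 49.8% in WT, and Cd3d over Cd3e was below 0 only in the KO libraries.

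Per kilobase of the deposited gene length, the order of the 9 levels also differed between groups. In all 4 WT libraries Trbc1 was first and Trbc2 second, with means of 190 ± 29.7 and 164 ± 24.5 CPM per kilobase (SD, n = 4 each). Within a WT library the log2 ratio of Trbc2 over Trbc1 was -0.21 ± 0.24 (SD, n = 4). It ran from -0.51 in WT 3 to -0.02 in WT 2, and was not tested against 0. In both KO libraries Trbc2 was first and Trac second, at 1360 ± 637 and 561 ± 176 CPM per kilobase (SD, n = 2 each). Cd3g had the third highest mean in both groups, 182 ± 90.1 CPM per kilobase in KO and 71.4 ± 24.9 in WT (SD, n = 2 and 4), but lay below Trbc1 in KO 2. The deposited lengths of Trbc1 and Trbc2, 519 and 520 bases, are close to their 518 coding bases. Cd4, Cd8a and Cd8b1 took the last 3 places in every library, between 5.73 and 25.4 CPM per kilobase in KO and between 0.05 and 12.3 in WT.

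The CD3 genes lie together on chromosome 9, with 1337 bases between Cd3g, on the minus strand, and Cd3d, on the plus strand, and 11682 bases between Cd3d and Cd3e. The promoter windows of this divergent pair are shown because their fitted log2 differences were unlike, 1.38 for Cd3g and 0.26 for Cd3d, which was not tested as a difference. They run from 250 bases before to 50 after the start, as given by RefSeq for GRCm38.p6. The start used for the Cd3d and Cd3e windows lies inside the gene bounds given above. The TCF/LEF core motifs CTTTGAT and CTTTGAA were searched on both strands. Capitals mark the single match, CTTTGAT on the minus strand of the Cd3d window.
Cd3d, chr9:44981536-44981835, plus strand: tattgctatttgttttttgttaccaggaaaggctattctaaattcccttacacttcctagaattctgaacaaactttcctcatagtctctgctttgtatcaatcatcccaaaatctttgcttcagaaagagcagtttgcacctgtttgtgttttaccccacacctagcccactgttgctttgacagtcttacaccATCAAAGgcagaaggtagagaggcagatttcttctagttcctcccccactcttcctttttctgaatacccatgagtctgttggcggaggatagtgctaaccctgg
Cd3g, chr9:44980382-44980681, minus strand: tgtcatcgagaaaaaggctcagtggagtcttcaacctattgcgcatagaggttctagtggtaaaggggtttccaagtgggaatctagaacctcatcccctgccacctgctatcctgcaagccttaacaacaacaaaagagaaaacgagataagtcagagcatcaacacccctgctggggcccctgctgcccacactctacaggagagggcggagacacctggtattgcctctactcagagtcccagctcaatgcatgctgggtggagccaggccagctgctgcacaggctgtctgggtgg
The Cd3g, Cd3e and Cd8a windows held neither motif, and the table had no window for the other members. Of 32817 windows of the same 300 bases, 3.73% held CTTTGAT and 8.65% held at least 1 of the 2 motifs. A match of letters does not show a bound site.

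Of the 3 coreceptor genes, which were low in most WT libraries, Cd4 and Cd8a were called higher in KO and Cd8b1 was not. Cd4 (Entrez gene 12504, chromosome 6, 124864693 to 124888247) had 17.7 and 71.6 CPM in KO, against 0.16, 2.97, 0.72 and 15.6 CPM in WT 1 to WT 4. The groups did not overlap, but KO 1 and WT 4 were close. Cd4 rose to 44.6 ± 38.1 CPM in KO (SD, n = 2), against 4.87 ± 7.27 CPM in WT (SD, n = 4). The log2 fold change was 3.96 (SE 0.74, adjusted p = 0.0144, edgeR). The call was lost without WT 3 (adjusted p = 0.0584), without KO 1 (2.95, adjusted p = 0.0799), without the sex term (0.116) and with the robust option (0.0974), while the value was 4.96 without WT 4 and 5.43 without KO 2.

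Cd8a (Entrez gene 12525, chromosome 6, 71373427 to 71379171), the chain found in both forms of CD8, had 79.5 and 64.4 CPM in KO, against 2.63, 1.78, 2.94 and 20.1 CPM in WT. Both KO libraries lay above WT 4 and far above the other WT libraries. Cd8a rose to 72.0 ± 10.7 CPM in KO (SD, n = 2), against 6.86 ± 8.84 CPM in WT (SD, n = 4). The log2 fold change was 3.75 (SE 0.82, adjusted p = 0.0249, edgeR). Leaving out WT 1, WT 3 or KO 1 ended the call (adjusted p 0.0938 to 0.189), as did the robust option (0.158). The fitted value was 2.56 with KO 1 left out and 4.98 with WT 4 left out.

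Cd8b1 (Entrez gene 12526, chromosome 6, 71322788 to 71337492), the beta chain of the heterodimer found on conventional CD8 T cells, had 13.2 and 29.9 CPM in KO, against 1.01, 1.55, 1.68 and 17.4 CPM in WT. WT 4 exceeded KO 1, and the log2 fold change of 2.47 (SE 0.80, adjusted p = 0.0830, edgeR) was not called. Without WT 4 it was 3.74 (adjusted p = 0.000789), and without KO 1 it was 1.66. Cd8b1 was also called with no expression filter (adjusted p = 0.0079), with limma voom (0.0245), with a replicate block (0.000824) and without WT 3 and WT 4 together (0.000452). The replicate block is near the same setting as leaving out WT 3 and WT 4, since only WT has these replicate numbers. Both therefore make the comparison without WT 4, the library that exceeded KO 1.

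Set against the WT libraries of the same sex, the size of the difference varied between the mice. KO 1 over the male WT mean was 6.16-fold for Trbc2, and KO 2 over the female WT mean was 10.1-fold. For the coreceptor genes the male and female ratios were 40.2 and 7.70 for Cd4, 28.6 and 5.89 for Cd8a, and 9.78 and 3.14 for Cd8b1. The order of the sexes rested on WT 4 for Cd8a and Cd8b1. Against WT 2 alone, a comparison chosen after the values were seen, KO 2 was 24.1-fold higher for Cd4, 36.2-fold for Cd8a and 19.3-fold for Cd8b1. The male and female ratios were 4.08 and 1.42 for Cd3e (1.10 against WT 2 alone), 4.51 and 1.34 for Cd3g, and 0.946 and 0.741 for Trbc1. Each sex held 1 KO mouse, and the genotype by sex term was called for none of the 9 genes (adjusted p 0.398 to 0.957, edgeR).

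**Figure D4:**
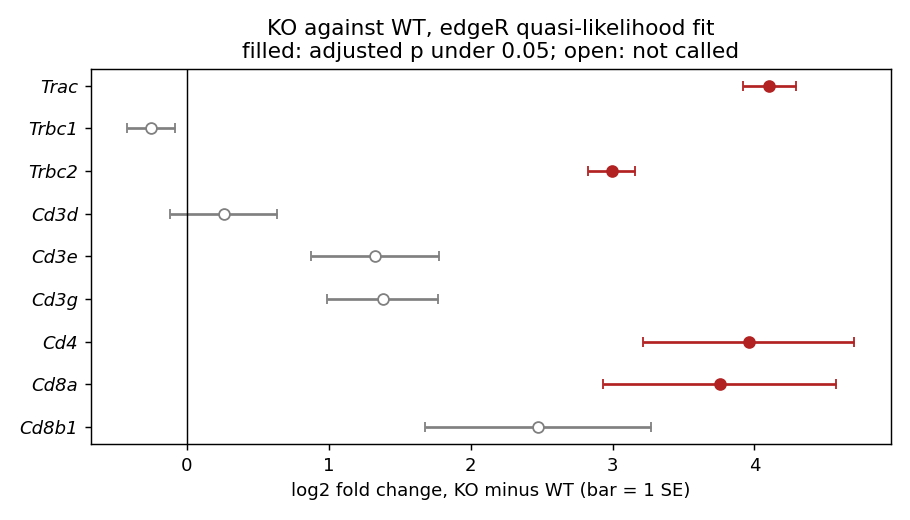
Log2 fold change of each gene, KO minus WT, with 1 SE to each side; filled points were called at an adjusted p under 0.05. Trac, Trbc2, Cd4 and Cd8a were called, Trbc1 and Cd3d lay near 0, and Cd3e, Cd3g and Cd8b1 lay above 0 without being called.

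Receptor-proximal signalling genes went both ways. Of 38 tested, 3 rose, 8 fell and 27 did not pass, and their median was -0.17 on the log2 scale. Over all tested genes 13.7% were called in either direction. Without KO 2 the counts were 2 higher and 1 lower, and with library-size scaling they were 4 and 5. Cd247, the zeta chain gene, had 168 and 101 CPM in KO, against 175 to 197 CPM in WT (-0.49, adjusted p = 0.129, edgeR), and Lck had 691 and 672 CPM in KO, against 780 to 877 CPM in WT (-0.27, adjusted p = 0.0769, edgeR). Zap70, the kinase that binds phosphorylated CD3 tails, had 292 and 261 CPM in KO and 267 to 300 CPM in WT. Plcg1, which encodes a phospholipase of the T cell receptor pathway, rose to 41.0 and 44.6 CPM in KO, against 4.92 to 13.3 CPM in WT (2.34, SE 0.24, adjusted p = 0.00140, edgeR).

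Other called signalling genes changed by smaller or less stable amounts. Themis, a gene of thymocyte selection, had 11.8 and 32.6 CPM in KO, against 1.86, 2.14, 2.64 and 13.7 CPM in WT (2.22, adjusted p = 0.0451, edgeR), so KO 1 lay below WT 4. Leaving out any of WT 1, WT 3, KO 1 and KO 2 ended its call (adjusted p 0.110 to 0.208), and without WT 4 the fitted value was 3.09 (adjusted p = 0.00286, edgeR). Fyn, a kinase of the Lck family, fell to 519 and 298 CPM in KO, against 748 to 794 CPM in WT (-0.95, adjusted p = 0.00926, edgeR). The diacylglycerol kinase gene Dgka fell to 151 and 66.1 CPM in KO, against 185 to 208 CPM in WT (-0.96, adjusted p = 0.0341, edgeR). Leaving out any of WT 1, WT 2, WT 3 and KO 2 ended its call (adjusted p 0.0559 to 0.111), and the fitted value was -0.45 with KO 2 left out and -1.54 with KO 1 left out.

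Other T cell surface and transcription factor genes went both ways. Of 15 surface genes, 3 rose and 5 fell, with a median of 0.14. Thy1 rose to 505 and 743 CPM in KO, against 243 to 366 CPM in WT (1.07, adjusted p = 0.00284, edgeR), and the costimulatory receptor gene Icos to 64.7 and 134 CPM in KO, against 29.6 to 42.9 CPM in WT (1.39, adjusted p = 0.0106, edgeR). Icos lost its call without KO 2 (0.83, adjusted p = 0.0868). Cd28, a costimulatory receptor gene, fell to 112 and 45.9 CPM in KO, against 148 to 242 CPM in WT (-1.42, adjusted p = 0.0406, edgeR), and did not pass when WT 1, WT 2 or KO 2 was left out (adjusted p 0.0665 to 0.132, and -0.69 with KO 2 left out).

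Of 14 T-lineage factor genes tested, 2 rose and 3 fell, with a median of -0.06. Bcl11b, a T cell commitment factor gene, rose to 63.6 and 113 CPM in KO, against 21.2 to 40.1 CPM in WT (1.59, adjusted p = 0.00114, edgeR). Satb1, a chromatin organiser gene, fell to 226 and 265 CPM in KO, against 456 to 507 CPM in WT (-0.97, adjusted p = 0.00149, edgeR). Ikzf1 fell to 821 and 726 CPM in KO, against 1097 to 1167 CPM in WT (-0.55, adjusted p = 0.00662, edgeR).

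**Figure D5:**
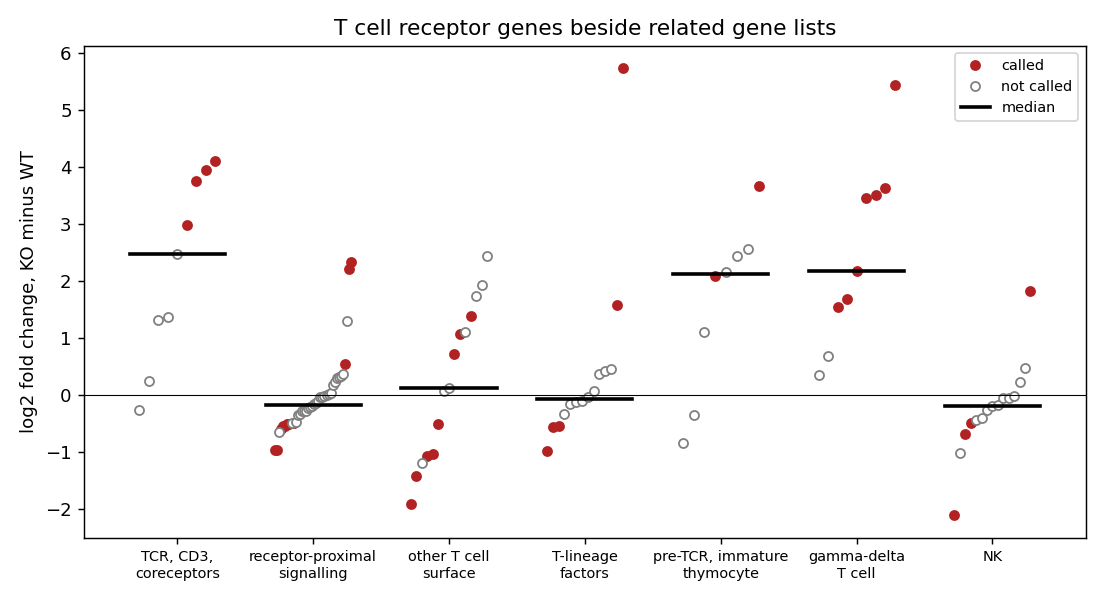
Log2 fold change, KO minus WT, of each tested gene in the receptor list and 6 related lists, sorted within a list, with a bar at the median; filled points were called. The receptor genes had a median of 2.47, against -0.17 for receptor-proximal signalling genes and -0.18 for NK genes.

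Several marker lists of other cells were also higher in KO. Gamma-delta T cells carry surface CD3, so the sort was set to leave them out. Of 9 gamma-delta T cell markers, 7 were called higher and none lower (median 2.17), and Trdc and Trgc4 were not called. Their summed level was 756 and 589 CPM in KO and 227 to 392 CPM in WT, and none was at 0 in any library. Trgc1, a gamma chain constant gene, rose to 127 and 145 CPM in KO, against 4.80 to 21.9 CPM in WT (3.46, adjusted p = 0.00146, edgeR). Trdc, the delta chain constant gene, had 283 and 135 CPM in KO, against 109 to 207 CPM in WT (0.37, adjusted p = 0.510, edgeR). Their part in the receptor gene results was not tested.

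Of 8 genes of the pre-TCR, recombination and immature thymocytes, 2 were called higher (median 2.13), and the list stood out in KO 2. Its summed level was 53.0 CPM in KO 1 and 546 CPM in KO 2, against 29.3 to 146 CPM in WT, and 1 of the 8 was at 0 in KO 1. Ptcra, which encodes the pre-TCR alpha chain, had 2.38 and 33.6 CPM in KO, against 0.73 to 1.33 CPM in WT (3.67, adjusted p = 0.0188, edgeR), and was not called without KO 2 (1.49, adjusted p = 0.309). Rag1 had 20.2 and 322 CPM in KO, against 4.25, 11.2, 10.4 and 62.4 CPM in WT (2.44, adjusted p = 0.0514, edgeR). The part of immature thymocytes in the receptor and coreceptor results was not tested.

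Of 10 B cell markers, 7 were called higher, with a summed level of 225 and 57.8 CPM in KO and 10.3 to 22.0 CPM in WT, and up to 5 of the 10 were at 0 in a WT library. The count of myeloid markers called higher, out of 12 tested, depended on the setting, with 0 here and 0 to 7 over the alternatives. The median log2 fold change of the 12 was 2.74. Itgam and Itgax, which NK cells also express, held most of the myeloid counts, with 1176 and 804 CPM in KO and 1152 to 1233 CPM in WT. The other 11 rows summed to 242 and 349 CPM in KO, against 68.7, 79.2, 94.1 and 215 CPM in WT, so both KO libraries lay above WT and WT 4 was the nearest. Of 6 stroma markers tested, 4 were called higher. Their sum over 11 rows was 272 and 451 CPM in KO and 111 to 120 CPM in WT, most of it from Pecam1. Pecam1 alone had 245 and 402 CPM in KO, against 103 to 113 CPM in WT. Of the 11 rows, 5 were at 0 in KO 1, 2 in KO 2 and 5 to 8 in the WT libraries. The sum of 15 NK markers was 17650 and 14884 CPM in KO and 16501 to 17238 CPM in WT, with 1 called higher and 3 lower. This sum hides changes in both directions. Gzmb, the gene called higher, had 2022 and 1543 CPM in KO, against 462 to 559 CPM in WT. Eomes, called lower, had 295 and 140 CPM in KO, against 800 to 930 CPM in WT. The median log2 fold change of the 15 was -0.18, and 3 lay above 0. The part of B cells, myeloid cells and stroma in the results was not tested.

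The genes with the most similar profile were sought among 10293 genes by the root mean square difference of mean-centred log2 CPM over the 6 libraries. For Trac these were Ly6a (0.26) and Ifitm1 (0.27), and for Trbc2 Heyl (0.13) and Septin8 (0.14). Trbc1 was nearest to Zfp513 (0.03) and Lactb2 (0.05). Among the CD3 genes, Cd3d was nearest to Gm16675 (0.12) and Trdc (0.12), Cd3e to Ifit3b (0.33) and Sh3bp5 (0.35), and Cd3g to Cdr2 (0.26) and Sh3bp5 (0.26). Among the coreceptor genes, Cd4 was nearest to Plbd1 (0.83) and Cybb (0.99). Cd8a was nearest to Gcnt2 (0.53) and H2-Aa (0.74), and Cd8b1 to Ccr9 (0.41) and Themis (0.42). The difference is not scaled to a gene's own spread over the libraries, so its size does not rank closeness between the members. With a smaller prior count of 0.5 in place of 2, Mpeg1 took the place of Cybb.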

How the data were processed

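The authors deposited unnormalized whole-number counts for each Entrez gene. Per the labels' protocols, the authors prepared libraries from total RNA with the SMART-Seq v4 kit and sequenced in paired-end mode. Per the submitters' processing notes, featureCounts and mm10 were used; aligner, annotation, strand setting and versions: not given in the sources used here. Intervals and floors cover counting error only. Symbols and positions came from a RefSeq table of GRCm38.p6, which matched 25275 of 26332 IDs; 0 columns belonged to other samples. The deposited gene lengths were used for levels per kilobase.

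Counts were fitted with edgeR 4.0.16 (R 4.3.3): TMM, filterByExpr, glmQLFit and glmQLFTest with an additive sex term, and Benjamini-Hochberg adjustment over 13652 genes. The SE is the absolute log2 fold change over the square root of F. The fit had 3 residual degrees of freedom. Ratios within a library used counts plus 0.5 per kilobase. DESeq2 1.42.0 and limma 3.58.1 (voom) were alternatives. The scripts were tested on simulated data. The series text says that each library came from an individual mouse.

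The genes and lists were chosen with earlier results of these data known. The named genes were the 9 members, Tcf7, for each member the 2 nearest profiles, and, per list, up to 4 called genes with the largest change and a mean of at least 2 log2 CPM, with defining markers of other cell types given by level. The gamma-delta constant genes, other genes beyond this rule, the V segments and the genotype by sex test were chosen after their values were seen. Some genes that this rule names are not reported here.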

Additional observations from a re-analysis of the deposited data

Results flagged for a closer look

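Cd8a and Cd8b1 had 1 WT library far from the rest. Cd8a had 20.1 CPM in WT 4 and Cd8b1 had 17.4 CPM in WT 4, and the gap to the next library took up 0.94 and 0.96 of the whole WT range. Chance alone would mark about 1 in 20 such groups if the values came from 1 normal distribution, which was not tested. Both flags rest on the same library. Rag1 and Themis were also highest in WT 4 among the WT libraries, with 62.4 and 13.7 CPM.

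Cd3d moved in opposite directions in the 2 sexes. KO 1 lay above both male WT libraries, with a log2 ratio of 0.95, and KO 2 lay below both female WT libraries, with a log2 ratio of -0.55. Each sex had 1 KO library, so sex and mouse cannot be told apart. The genotype by sex term of Cd3d, added after its values were seen, was -1.50 on the log2 scale (unadjusted p = 0.0331, adjusted p = 0.476, edgeR). Over all 13652 genes, 0 were called for this term with edgeR, the only tool run for it, and 1368 had an unadjusted p under 0.05.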

How the results depend on the processing

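Trac and Trbc2 stayed called in all 17 alternatives, with log2 fold changes of 3.96 to 4.28 and 2.62 to 3.32, and Trbc1 was never called (-0.44 to -0.07). The count of the 9 genes called higher was 4, but 7 with no expression filter, 2 with the robust option, and 2 to 6 with a library left out. The count called lower was 0 in every alternative. Calls over all genes were 1872, against 2955 with DESeq2 and 934 to 1908 with a library left out (934 when KO 2 was dropped, 1015 for KO 1, 1002 for WT 1 and 1022 for WT 3). Cd3d changed sign with the replicate block (-0.093), without WT 3 and WT 4 together (-0.091) and with a library left out (-0.56 to 0.94). The block leaves WT 3 and WT 4 without a KO partner, so it and the fit without them compare the same libraries. With a library left out, the difference in log2 ratio was -0.24 to 0.15 for Cd3g over Cd3e (-0.04 with all), -0.072 to 1.42 for the beta constant sum over Cd3e (0.68 with all) and -0.79 to 1.52 for Cd4 over Cd8a (0.36 with all). It kept its direction in the 5 other ratios, and adding 5 counts in place of 0.5 changed no direction. The cause of these changes was not tested. The calls higher and lower among signalling genes (3 and 8) ranged over 1 to 5 and 1 to 13, and those of the pre-TCR list (2 higher) over 0 to 6, of B cell markers (7 higher) over 1 to 9 and of gamma-delta markers (7 higher) over 4 to 8. The replicate numbers pair only 2 mice of each genotype, whose deviations from the group means correlated at 0.13 and -0.05 across genes. With 2 KO libraries the deviations of KO 1 and KO 2 mirror each other. These values therefore cannot show whether mice of the same number share more than the number. With the replicate block 1341 genes and 5 of the 9 receptor genes were called. With 1 KO library left out, the spread of the remaining one was taken from the WT libraries.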
